A study of Mus musculus with 2 samples.

Results

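A set of 10 genes that report on the fibroblast growth factor (FGF) to ERK pathway was followed in single mouse embryonic stem cells. They were taken by symbol from the feature rows and are the ligand Fgf4, the receptor Fgfr1, the feedback inhibitors Dusp6, Spry2 and Spry4, the ETS transcription factors Etv4 and Etv5, and the immediate early genes Egr1, Fos and Ier2. All 10 were found among the 32285 genes listed, and 9 of them reached a mean of 10 CPM (counts per 1000000 UMIs, where a UMI is the random tag by which a captured molecule is counted once), the level from which ratios over all genes are read. Fos, at 7.32 CPM, did not.

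Both groups were E14 mouse embryonic stem cells of the 129/Ola background, a cultured line derived from the inner cell mass, kept on gelatin in serum with leukaemia inhibitory factor. One flask received control small interfering RNA (siRNA) and is named control here. The other received siRNA against Son and is named sonKD. Son encodes an RNA-binding protein of nuclear speckles that takes part in splicing. Both transfections used a lipid reagent and were made 24 h after seeding, and the cells were taken up with trypsin 24 h later. They were then frozen, thawed, sorted for exclusion of the dye 7-AAD and given cell barcodes with the 10x Genomics 3' v3 chemistry. Each group held 1 library. There was no replicate check, no test was made, and a difference between the libraries and an effect of the siRNA cannot be told apart. All intervals are at 95% and cover counting error only.

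In embryonic stem cells FGF4 is made by the cells themselves and acts on neighbouring cells through FGF receptors, of which FGFR1 is the main one. The receptor recruits adaptors that load RAS, and RAF, MEK and ERK kinases pass the signal on. Active ERK reaches the nucleus within minutes and switches on immediate early genes, followed by ETS factors of the PEA3 group and by inhibitors that dampen the same pathway. In mouse embryonic stem cells FGF-ERK signalling is known for moving cells out of the naive state, and its transcripts are commonly used to read pathway activity.

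Cells were barcodes with at least 2500 UMIs and 1000 genes, and with no more than 10% of UMIs from mitochondrial genes, which gave 4978 control and 2731 sonKD cells with 40902904 and 32032551 UMIs. The median cell was deeper in sonKD, with 11612 UMIs against 7737.5. Barcodes left out for their mitochondrial share alone were 11.2% of control and 27.9% of sonKD barcodes. The libraries shared 2 cell barcodes. The share of ribosomal protein genes was 20.7% of control and 24.1% of sonKD UMIs. Son itself was lower in sonKD, at 106 against 169 CPM, a log2 ratio of -0.67 (-0.73 to -0.61). All 10 genes of embryonic stem cell identity, among them Pou5f1, Sox2 and Nanog, were found at 38.8 CPM or more in control and at 37.5 CPM or more in sonKD. Of 8 fibroblast genes none reached 10 CPM, the sum was 4.60 CPM in control and 4.71 CPM in sonKD, and Col3a1, Lum and Postn were at 0 UMIs. Trophoblast genes summed to 12.2 and 14.9 CPM with Elf5 at 0, and mesoderm genes to 5.11 and 5.12 CPM. The primitive endoderm list summed to 423 and 402 CPM, mostly from the matrix genes Sparc, Lamc1 and Lama1, with Gata6 and Sox17 under 1 CPM, and the neuroectoderm list to 118 and 101 CPM, mostly from Ncam1 and Tubb3. Their part in the results was not tested.

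The 250 bases before the RefSeq start (build GRCm38.p6) are shown for the ligand, whose level was lower in sonKD, and for a phosphatase and a Sprouty gene whose levels were not distinguishable between the libraries at this depth. The windows are chr7:144861136-144861385 (plus strand) for Fgf4, chr10:99262981-99263230 (plus strand) for Dusp6 and chr14:105896820-105897069 (minus strand) for Spry2, each written 5′ to 3′ on the strand of the gene. Capitals mark the core of the motif that ETS factors bind, GGAA or its reverse complement TTCC.
Fgf4: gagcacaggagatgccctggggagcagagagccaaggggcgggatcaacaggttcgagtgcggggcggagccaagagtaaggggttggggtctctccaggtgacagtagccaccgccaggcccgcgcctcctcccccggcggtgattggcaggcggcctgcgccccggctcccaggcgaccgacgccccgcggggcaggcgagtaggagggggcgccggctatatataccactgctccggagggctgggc
Dusp6: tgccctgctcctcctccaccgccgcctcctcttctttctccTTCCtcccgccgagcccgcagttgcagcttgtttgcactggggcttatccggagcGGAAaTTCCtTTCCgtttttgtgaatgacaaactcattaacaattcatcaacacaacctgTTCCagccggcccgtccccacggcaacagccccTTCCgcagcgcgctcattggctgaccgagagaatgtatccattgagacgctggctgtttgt
Spry2: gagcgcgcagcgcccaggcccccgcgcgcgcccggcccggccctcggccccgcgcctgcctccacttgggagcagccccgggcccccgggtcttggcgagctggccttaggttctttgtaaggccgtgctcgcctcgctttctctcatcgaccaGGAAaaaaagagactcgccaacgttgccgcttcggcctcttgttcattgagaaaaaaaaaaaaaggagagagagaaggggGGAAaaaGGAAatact
The table of promoters held 5 of the 10 genes, and for those the core was found 0 times in Fgf4, 6 times in Dusp6, 3 times in Spry2 and 5 times in Fos. Etv5 had 2 windows, with 0 and 4 cores. Of all 32851 windows of this length, 93.4% held the core at least once, 54.7% at least 3 times and 8.69% at least 6 times, with a median of 3. The Fgf4 window is thus among the few without the core, and the count in Spry2 equals the median. Longer motifs were searched on both strands: CCGGAA (in 12.03% of all windows, and overlapping the core), the AP-1 site TGACTCA (4.46%), the cyclic AMP response element TGACGTCA (1.55%), the EGR site GCGTGGGCG (0.536%) and the CArG box (1.47%). None of the windows of these genes held any of them. The RefSeq start of Fgf4 lies inside the longer GENCODE span of the gene given below. The matches describe letters only, and the RNA counts do not measure these windows.

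The first comparison asks how far the level of each gene differed between sonKD and control. The ligand, the receptor and both ETS factors were lower in sonKD by a modest fold, and Egr1 was lower by the largest fold among the 10 genes. These 5 had counting intervals below 0, where 51.5% of all genes did, so that count is no result about them. The 3 feedback inhibitors and Ier2 differed by less than the counting error, and 0 intervals were above 0, against 12.3% of all genes. With TMM the intervals of Ier2 (0.12, 0.08 to 0.17) and Spry2 (0.14, 0.02 to 0.26) were above 0, as they were without mitochondrial and ribosomal protein genes in the total (0.11, 0.06 to 0.15, and 0.12, 0.005 to 0.24). A log2 ratio beyond 0.32 in size was taken as the mark for lower or higher. Of the 9 genes at 10 CPM, 1 was lower by that mark in sonKD (Egr1) and 0 were higher. Among all 8063 genes at this level, 10.2% were lower and 3.5% were higher by the same mark, so the share of these genes is near the background. Their median log2 ratio was -0.17, against -0.12 over all genes, whose 5th and 95th percentiles were -0.40 and 0.25. The sum of the 10 genes went from 662 to 614 CPM, a log2 ratio of -0.11 (-0.14 to -0.08). Scaling by trimmed mean of M values (TMM) moved the median of all genes to -0.03 and the split of genes past the mark from 74.4% lower to 45.2% lower, and leaving mitochondrial and ribosomal protein genes out of the total gave 50.9%. With TMM 1 of the 9 genes was lower (Egr1) and 0 were higher, against 4.59% and 5.57% of all genes. Small differences below are to be read against that shift.

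**Figure D1:**
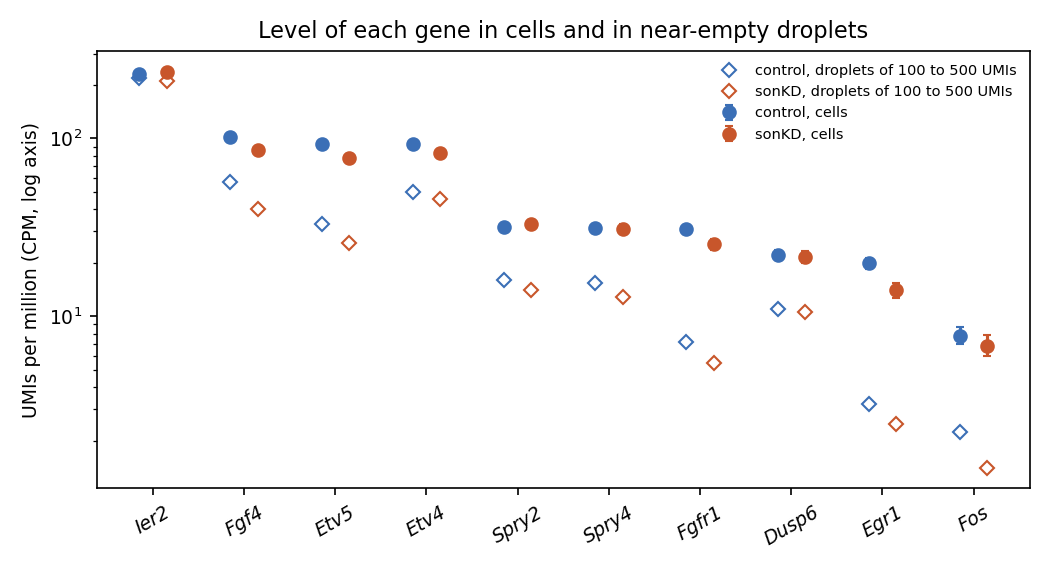
Level of each gene in counts per 1000000 UMIs (vertical log axis) in control (blue) and sonKD (orange). Filled circles are the sums over cells with 95% Poisson intervals, and open diamonds are droplets of 100 to 500 UMIs from the same libraries. Ier2 stands highest at 230.3 and 235.4 CPM and Fos lowest at 7.80 and 6.84 CPM.

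By 3' counting each captured molecule is counted once whatever its length, and levels are set side by side here as captured UMIs. Whether intronic reads were counted is not given, and whether capture was alike between genes was not tested. The order is thus one of UMIs found, not of molecules in the cell. In control the order was Ier2, Fgf4, Etv5, Etv4, Spry2, Spry4, Fgfr1, Dusp6, Egr1 and Fos, over a range from 230.3 to 7.80 CPM. Etv5 and Etv4 were indistinguishable (log2 ratio between them 0.01, -0.06 to 0.07), as were Spry2, Spry4 and Fgfr1, each from the next. In sonKD Etv4 stood slightly above Etv5, and Fgfr1 stood below Spry4 by 0.28 (0.15 to 0.42) on the log2 scale. Egr1 stood below Dusp6 by a log2 ratio of 0.16 (0.02 to 0.30) in control and 0.62 (0.45 to 0.80) in sonKD.

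Fgf4 (ENSMUSG00000050917), which encodes the ligand that embryonic stem cells secrete, lies on chromosome 7 from 144847367 to 144865243 in GENCODE M21 on GRCm38, with 3 exons in its longest model. Control cells held 4156 UMIs of it, at 102 CPM (98.5 to 105), and sonKD cells 2764, at 86.3 CPM (83.1 to 89.6). This gave a log2 ratio of -0.24 (-0.31 to -0.17), at percentile 22.5 of all genes. The intervals of the 2 libraries did not overlap, yet 22.5% of all genes had a lower ratio. Within bands of depth the difference was larger, at -0.50 (-0.65 to -0.34) in cells of 5000 to 10000 UMIs. In cells of 10000 to 15000 UMIs it was -0.39 (-0.50 to -0.27). The median of all genes was lower in these bands too, at -0.16 and -0.20 against -0.12 over all cells. With TMM the ratio of Fgf4 was -0.15 (-0.22 to -0.08).

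Fgfr1 (ENSMUSG00000031565), the receptor, is on chromosome 8 from 25513654 to 25575718 with 18 exons, and an antisense gene, Gm16159, overlaps it on the opposite strand. Its level was 30.8 CPM (29.1 to 32.5) in control and 25.4 CPM (23.7 to 27.2) in sonKD, from 1259 and 814 UMIs. The log2 ratio of -0.28 (-0.41 to -0.15) stood at percentile 15.2. In the shallower band of depth the interval included 0 (-0.18, -0.45 to 0.08), and in the deeper band the ratio was -0.47 (-0.69 to -0.25). Receptor and ligand thus had ratios of like size, and each was below 0 in all 10 alternatives that were run, as was the median of all genes.

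Etv4 and Etv5 are transcription factors of the PEA3 group that FGF signalling induces in many tissues. Etv4 (ENSMUSG00000017724, chromosome 11 from 101769742 to 101785371, 13 exons) had 3811 UMIs in control and 2652 in sonKD, at 93.2 CPM (90.2 to 96.2) and 82.8 CPM (79.7 to 86.0). Etv5 (ENSMUSG00000013089, chromosome 16 from 22381309 to 22439719, 13 exons) had 3826 and 2504 UMIs, at 93.5 CPM (90.6 to 96.6) and 78.2 CPM (75.1 to 81.3). The genes began level in control and were both lower in sonKD, Etv5 by -0.26 (-0.33 to -0.19) and Etv4 by -0.17 (-0.24 to -0.10) on the log2 scale. With TMM the ratio of Etv4 moved to -0.08 (-0.15 to -0.01) and that of Etv5 to -0.17 (-0.24 to -0.10). In the bands of depth Etv4 was at -0.38 (-0.54 to -0.22) and -0.14 (-0.26 to -0.02), and Etv5 at -0.22 (-0.37 to -0.07) and -0.35 (-0.47 to -0.22). Both ratios were negative in all 10 alternatives, as was the median of all genes. Which of the 2 was lower depended on the cells compared.

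No such difference was measured for the feedback inhibitors. Dusp6 (ENSMUSG00000019960, chromosome 10 from 99263231 to 99267489, 3 exons) encodes a phosphatase that removes the activating phosphates of ERK. It stood at 22.1 CPM (20.7 to 23.6) in control and 21.5 CPM (19.96 to 23.2) in sonKD, from 905 and 690 UMIs, a log2 ratio of -0.04 (-0.18 to 0.11). Spry2 (ENSMUSG00000022114, chromosome 14 from 105891947 to 105896819, 2 exons) and Spry4 (ENSMUSG00000024427, chromosome 18 from 38586247 to 38601415, 2 exons) encode Sprouty proteins, which hold back signalling between receptor and RAF. Spry2 stood at 31.9 CPM (30.1 to 33.6) in control and 33.0 CPM (31.0 to 35.0) in sonKD, a log2 ratio of 0.05 (-0.07 to 0.17). Spry4 stood at 31.2 CPM (29.5 to 33.0) and 30.9 CPM (29.0 to 32.9), a log2 ratio of -0.02 (-0.14 to 0.10). None of the 3 differences exceeded its counting interval, and the intervals allow Dusp6 in sonKD between 88.0% and 108% of control. The signs were not fixed: with TMM Dusp6 was at 0.05 (-0.09 to 0.20) and Spry4 at 0.07 (-0.05 to 0.19), and Spry2 was at -0.01 in cells of 5000 to 10000 UMIs. In that band Spry4 was lower in sonKD by -0.33 (-0.61 to -0.06) on the log2 scale, at 24.0 against 30.1 CPM, and in the deeper band it was at -0.15 (-0.35 to 0.05). Spry4 has 2 short RNA genes on its opposite strand.

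The immediate early genes differed from one another. Egr1 (ENSMUSG00000038418, chromosome 18 from 34859823 to 34864984, 2 exons), a zinc finger transcription factor that ERK induces through serum response elements, stood at 19.8 CPM (18.5 to 21.2) in control and 14.0 CPM (12.7 to 15.3) in sonKD, from 811 and 448 UMIs. The log2 ratio of -0.50 (-0.67 to -0.34) was at percentile 2.33 of all genes, and sonKD held 70.5% (62.7 to 79.3) of the control level. The ratio was -0.36 (-0.71 to -0.03) and -0.30 (-0.59 to -0.02) in the bands of depth, so in the deeper band Egr1 was no longer past the mark. Fos (ENSMUSG00000021250, chromosome 12 from 85473890 to 85477273, 4 exons), a subunit of the AP-1 factor, had only 319 and 219 UMIs. At 7.80 CPM (6.97 to 8.70) and 6.84 CPM (5.96 to 7.80) its log2 ratio was -0.19 (-0.44 to 0.06), and within the bands of depth it was above 0, at 0.12 (-0.36 to 0.58) and 0.38 (-0.11 to 0.89). A difference in Fos was thus not detectable at this depth. Ier2 (ENSMUSG00000053560, chromosome 8 from 84661331 to 84662852, 1 exon), a nuclear protein induced early by serum and growth factors, had 9419 and 7539 UMIs. It stood at 230.3 CPM (226 to 235) in control and 235.4 CPM (230.1 to 241) in sonKD, a log2 ratio of 0.03 (-0.01 to 0.08). Its sign turned with depth, at -0.10 (-0.19 to -0.02) in cells of 5000 to 10000 UMIs and 0.24 (0.16 to 0.31) in cells of 10000 to 15000 UMIs.

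**Figure D2:**
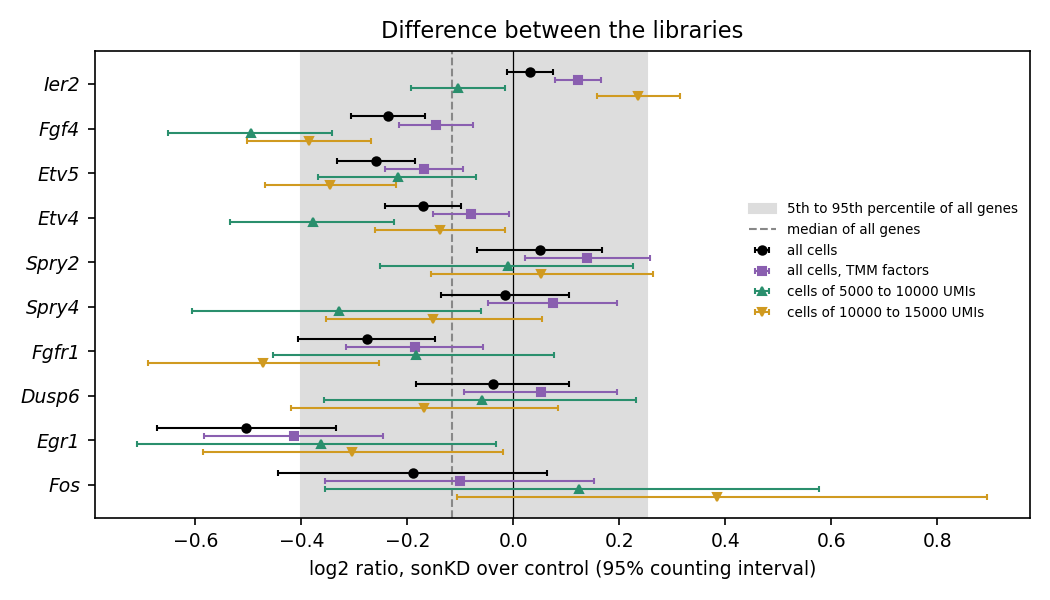
Log2 ratio of sonKD over control (horizontal axis, with 95% counting intervals) for each gene over all cells, over all cells with TMM factors, and in 2 bands of cells of like depth. The shaded band runs from the 5th to the 95th percentile of all genes, -0.40 to 0.25, and the dashed line is their median of -0.12. Both are for all cells without TMM, so only the points over all cells without TMM can be read against them. The median of all genes was -0.03 with TMM and -0.16 and -0.20 in the shallower and deeper bands, and is not drawn. Egr1 over all cells, at -0.50, lies left of the band, Ier2 is below 0 in the shallower and above 0 in the deeper band, and every interval of Fos includes 0.

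The bands were chosen after the data were seen, because sonKD cells were deeper. They held 3475 control and 675 sonKD cells of 5000 to 10000 UMIs, and 797 control and 1428 sonKD cells of 10000 to 15000 UMIs. Within each band sonKD cells were still deeper, with medians of 8396 against 7486 UMIs and 12157 against 11284 UMIs. Of the 10 genes, 4 were lower past the mark in the shallower band (Fgf4, Etv4, Egr1 and Spry4), where 24.2% of all genes were lower and 7.39% higher. In the deeper band 3 were lower (Fgf4, Fgfr1 and Etv5) and 1 was higher (Fos, at 5.30 and 6.92 CPM). Of all genes at 10 CPM there, 33.0% were lower and 4.86% higher. Fos was under that level and its interval included 0 (-0.11 to 0.89), so those shares do not cover its call. In cells with 2.5% to 5% mitochondrial UMIs 2 were lower (Egr1 and Fgfr1), against 11.8% of all genes. Fgf4 was the one gene past the mark in both bands of depth. The share of all genes past it in both bands was not counted, so this is no result about Fgf4. Fgf4, Fgfr1, Etv4, Etv5 and Egr1 had negative ratios in all 10 alternatives, as far as those alternatives go. The median of all genes was negative in each of them too, from -0.03 with TMM to -0.20 in the deeper band. The share of all genes with a negative ratio throughout was not counted, and the alternatives reuse the same counts.

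The second comparison asks in how many cells each gene was found. For this, 4000 UMIs were drawn at random from every cell, which left out 268 shallower control and 109 shallower sonKD cells and kept 4710 and 2622. The share with Fgf4 was 31.4% in control (30.1 to 32.8) and 27.4% in sonKD (25.7 to 29.1), which differ by -4.06 points (-6.23 to -1.86). Etv5 was found in 29.7% (28.4 to 31.0) and 24.9% (23.3 to 26.6). For Etv4 the shares were 28.7% (27.4 to 30.0) and 26.9% (25.2 to 28.7). Ligand and ETS factors were thus each found in a minority of cells at this depth, and most of those cells held a single UMI: Fgf4 had 1 UMI in 24.3% of control cells, 2 in 5.80% and 3 or more in 1.38%. Ier2 was found in 58.9% (57.4 to 60.3) and 59.95% (58.0 to 61.8). Fgfr1 was found in 11.4% and 9.76%, Spry2 in 11.0% and 11.1%, Spry4 in 11.4% and 10.9%, and Dusp6 in 8.32% and 8.09%. The rarest were Egr1, at 7.11% (6.39 to 7.88) and 4.92% (4.12 to 5.82), and Fos, at 3.08% (2.60 to 3.61) and 2.06% (1.55 to 2.68).

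The interval of the difference was below 0 for 5 genes, namely Fgf4, Fgfr1, Etv5, Egr1 and Fos, where it was for 34.8% of all genes. One random draw decided Fos and Etv4: taken over all possible draws, an alternative added after seeing the data, the difference was -0.50 points (-1.29 to 0.34) for Fos and -2.98 points (-5.11 to -0.81) for Etv4, with Fgf4 at -4.88, Etv5 at -4.00, Egr1 at -1.96 and Fgfr1 at -1.93. The genes lower by detection over all draws were then the same 5 as by level, where 33.2% of all genes were lower in that way. The genes average under 1 UMI per thinned cell, with Ier2 the highest at 0.93 in control and 0.97 in sonKD. The share found thus follows the level from the same counts, and the match is no separate support. In 1 draw from cells of at most 5% mitochondrial UMIs the intervals of Egr1 (-2.48 to 0.11), Fgfr1 (-2.86 to 0.34) and Fos (-1.15 to 0.53) included 0. Those of Fgf4 and Etv5 stayed below it. The interval of Etv4 was below 0 there (-6.20 to -1.30) but included 0 in the single draw from all cells (-3.94 to 0.37). Without thinning, the deeper sonKD cells had the higher share for 9 of the genes, for example 55.9% against 51.5% for Fgf4, and Egr1 alone was lower, at 12.3% against 13.0%. As a background, 10 genes of other tissues were read in the same cells. Alb, Ins2, Hbb-bs and Umod had 0 UMIs, 5 others were found in at most 0.191% of thinned cells, and Ttn was found in 4.56% and 3.93%. The shares of Fos were below those of Ttn and the shares of the other 9 genes above them.

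**Figure D3:**
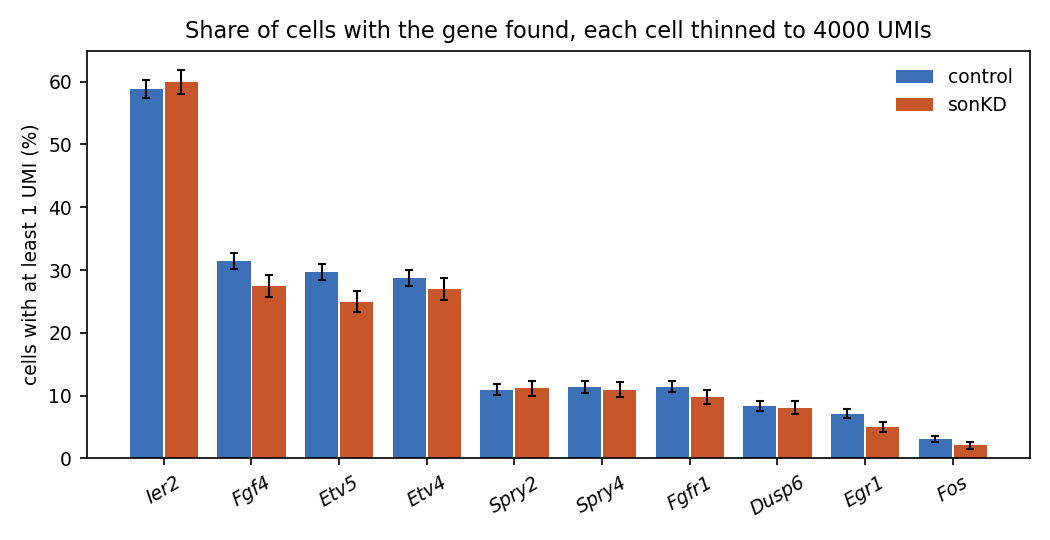
Share of cells with at least 1 UMI of each gene (vertical axis, percent) after every cell was thinned to 4000 UMIs, in 4710 control cells (blue) and 2622 sonKD cells (orange). Bars start at 0 and error bars are 95% Clopper-Pearson intervals. The shares run from 58.9% and 59.95% for Ier2 to 3.08% and 2.06% for Fos, and Fgf4, Etv5 and Egr1 are lower in sonKD.

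Droplets of 100 to 500 UMIs, which mostly hold free RNA, showed the level of each gene in RNA outside cells. Ier2 was at 218 CPM in control droplets and 210 CPM in sonKD droplets, so cells held only 1.06 times (1.02 to 1.10) and 1.12 times (1.08 to 1.17) the droplet level. These droplets averaged 307 UMIs in control and 299 in sonKD, so a like composition does not say that the UMIs found in cells are free RNA. At the other end Egr1 was 6.17 times (4.73 to 8.18) and 5.67 times (4.18 to 7.86) as high in cells as in droplets, and Fgfr1 4.28 times and 4.65 times. Over all genes the median was 1.90 and 2.04 times. Fgf4, at 57.0 and 39.9 CPM in droplets, was 1.78 and 2.16 times as high in cells, and Etv4 1.87 and 1.81 times. Egr1 and Fgfr1 thus stood well above the free RNA, Fgf4 and Etv4 were near the middle of all genes, and Ier2 was almost level with it. Free RNA of Fgf4 was itself lower in the sonKD droplets, and its part in the difference between cells was not tested.

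Barcodes that passed the minimum of UMIs and genes but had more than 10% mitochondrial UMIs numbered 625 in control and 1056 in sonKD. They come from the same 2 libraries and are no replicate. Egr1 was lower there as well, at 24.3 CPM (17.9 to 32.2) in control and 10.7 CPM (7.61 to 14.6) in sonKD, a log2 ratio of -1.18 (-1.83 to -0.54). Fgf4 was at 160 and 126 CPM (-0.34, -0.55 to -0.13), Etv5 at 116 and 96.1 CPM (-0.28, -0.52 to -0.03), and Spry4 at 49.1 and 34.3 CPM (-0.52, -0.91 to -0.12). The intervals of the other 6 genes included 0. The share of all genes with an interval below 0 was not counted in these barcodes, so these 4 are no result about the set. The 51.5% of the kept cells does not carry over, since these barcodes held only 1975193 UMIs in control and 3643329 in sonKD. Fgf4 and Spry4 were higher in these control barcodes than in control cells, by 0.65 (0.49 to 0.82) and 0.65 (0.34 to 0.95) on the log2 scale, where the median over all genes was 0.15. In sonKD Fgf4 was higher by 0.55 (0.40 to 0.69) and Spry4 by 0.15 (-0.13 to 0.42), with a median of 0.11.

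Among the kept cells the level of several genes moved with the mitochondrial share. Fgfr1 went in control from 16.4 CPM (12.7 to 20.8) in cells under 2.5% to 54.1 CPM (40.3 to 71.2) in cells of 7.5% to 10%, and in sonKD from 21.4 to 49.1 CPM. Etv4 went the other way, from 99.6 to 65.8 CPM in control and from 88.7 to 57.6 CPM in sonKD. Etv5 was at 64.6 and 62.8 CPM in the cells with the least mitochondrial RNA and at 97.6 and 101 CPM in those with the most. The 2 ETS factors, level with each other over all control cells, thus ran in opposite directions along this axis in both libraries. Ier2 ran from 243 to 187 CPM in control and from 267 to 203 CPM in sonKD. Egr1 in control was highest at 5% to 7.5%, with 28.7 CPM (24.3 to 33.6) against 7.43 CPM (2.99 to 15.3) from 7.5%, and in sonKD it stayed between 13.4 and 16.01 CPM. Depth moved with this share: the median cell had 8138.5 UMIs in the lowest and 3860 in the highest class of control, and 12355 and 4892 in sonKD. Its part in these trends was not tested.

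**Figure D4:**
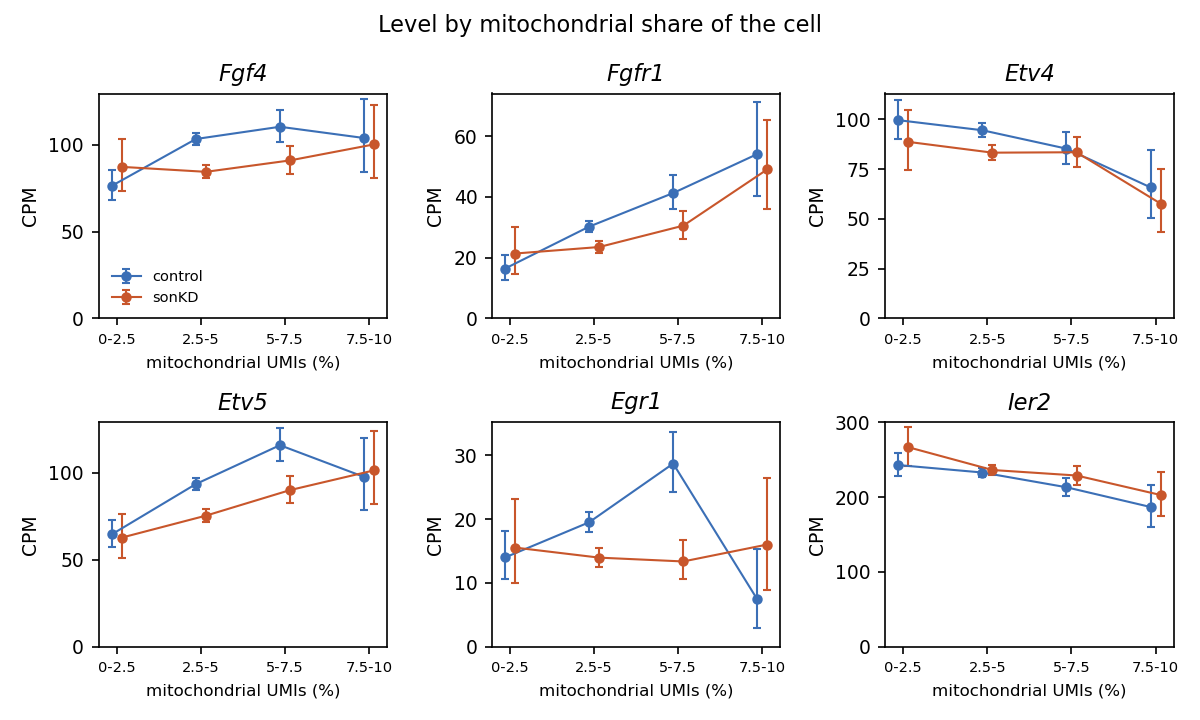
Level of 6 of the genes in counts per 1000000 UMIs (vertical axes, from 0) in cells grouped by their share of mitochondrial UMIs (horizontal axes, percent), with 95% Poisson intervals, control in blue and sonKD in orange. Fgfr1 is higher and Etv4 lower in the class of 7.5% to 10% than in the class under 2.5% in both libraries. That highest class holds 201 control and 151 sonKD cells.

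By depth within a library, Fos was at 12.4 CPM in the shallowest of 4 equal classes of control cells and 5.82 CPM in the deepest, and at 10.1 and 4.62 CPM in sonKD. Etv4 and Spry4 ran the other way. From the shallowest to the deepest class Etv4 went from 79.6 to 97.2 CPM in control and from 66.8 to 85.4 CPM in sonKD, and Spry4 from 26.9 to 35.7 CPM and from 25.7 to 33.3 CPM. Dusp6 stayed between 20.5 and 24.2 CPM in the classes of control and between 19.9 and 23.1 CPM in those of sonKD.

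A further question was whether the genes were found together in the same cells. The Fano factor (variance over mean, 1 for pure sampling) lay between 1.00 for Fgfr1 and 1.15 for Egr1 in control and between 1.00 for Fgfr1 and 1.21 for Egr1 and Fos in sonKD, against a median of 1.03 and 1.04 over all genes. Its interval was above 1 for 8 of the 10 genes in control (all but Fgfr1 and Dusp6) and for 7 in sonKD. The share of all genes with such an interval was not counted, so these counts are no result about the set. In each library 0 of the 10 genes were above the 95th percentile of all genes. Among all genes that average under 1 UMI the 95th percentile in sonKD was 1.17, and Egr1 and Fos were above it. Fos averaged 0.023 UMI there, below the genes read, and was found in 54 cells. Its value moved to 1.52 at 6000 UMIs. Pearson's r of log2 (UMIs + 1) over thinned cells, given as a description because the points share libraries, lay between -0.05 and 0.06 over the 45 pairs in control and between -0.04 and 0.07 in sonKD. The mean was 0.014 and 0.012. In counts this sparse such values are no finding.

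Pairs found in the same cell were counted against the number expected from their separate shares, averaged over all draws. The median ratio was 1.05 in control and 1.04 in sonKD, 33 and 31 of the 45 pairs were above 1, and 27 were above 1 in both. Over all 27258036 pairs of the 7384 genes found in a like share of cells, the median was 1.01 in each library, 56.6% and 57.0% were above 1 and 37.3% in both. The lower bound was above 1 for Spry2 with Spry4, at 1.32 (1.04 to 1.64), and for Spry4 with Etv4, at 1.22 (1.05 to 1.41), both in control, where 0.454% of all those pairs passed. These shares describe pairs of other levels too, and nothing particular to the 10 genes is read from them. In sonKD the same pairs were at 1.24 (0.89 to 1.68) and 1.05 (0.83 to 1.31), and no pair had its lower bound above 1. Egr1 with Fos had the highest ratio in each library, 1.67 (0.99 to 2.65) and 1.87 (0.73 to 3.90), from an expected 10.6 and 3.61 cells. Dusp6 with Spry4 was at 1.22 (0.92 to 1.60) and 1.40 (0.95 to 1.99). Fgf4 with its receptor Fgfr1 was at 1.02 (0.88 to 1.19) and 1.06 (0.83 to 1.33), so cells with ligand RNA held receptor RNA about as often as other cells did. Fgf4 with Etv5 was at 1.06 (0.97 to 1.16) and 1.07 (0.93 to 1.24).

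**Figure D5:**
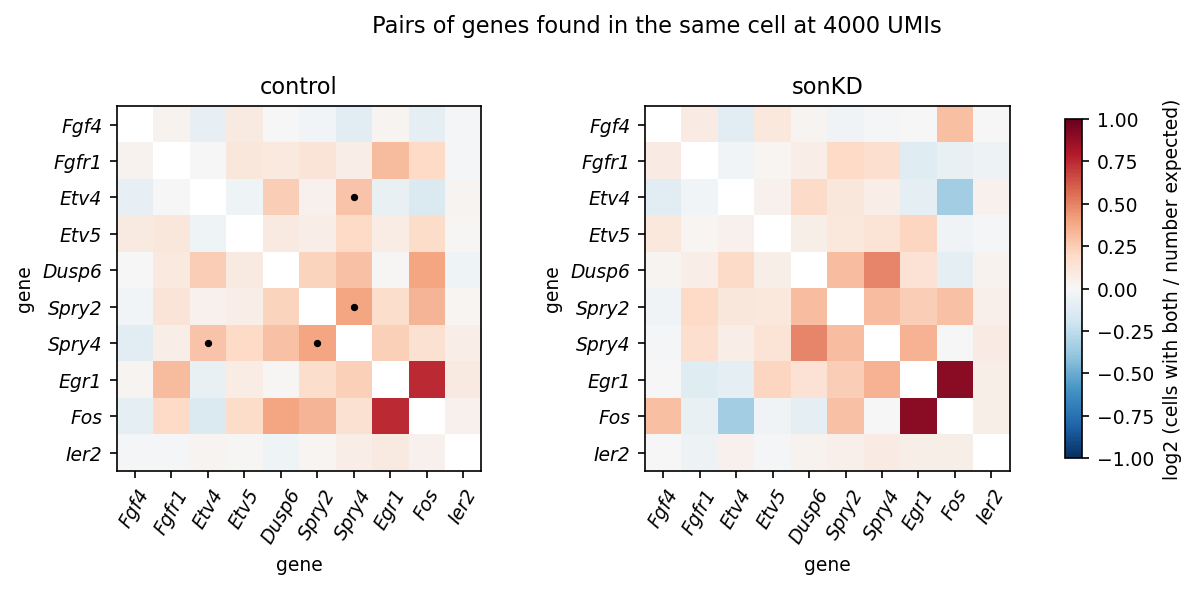
Ratio of cells in which both genes of a pair were found to the number expected from their separate shares (colour, log2 scale, red above and blue below expectation), for control at left and sonKD at right. Dots mark pairs whose lower 95% bound is above 1, which are Spry2 with Spry4 and Spry4 with Etv4 in control and none in sonKD. Egr1 with Fos is the darkest pair, from few cells.

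Against summed lists the relations were as weak. Etv4 had r of 0.08 with formative and primed genes in both libraries, of which Utf1 gave 431 of 607 CPM in control and 431 of 594 CPM in sonKD. Without Utf1 it was 0.03 and 0.02. Fgf4 had 0.08 and 0.05 and Etv5 0.08 and 0.04 with naive genes. The largest of the 80 values in control was 0.11, for Fgfr1 with the mitochondrial share (0.07 in sonKD). For the 7 genes with at least 0.1 UMI per thinned cell, the 5 genes most like each were named by the lower of their r in the 2 libraries. Etv4 was most like Utf1, an embryonic stem cell chromatin factor (0.08 and 0.08), Etv5 most like Jarid2, a partner of Polycomb (0.09 and 0.09), and Fgf4 most like Malat1, a nuclear noncoding RNA (0.09 and 0.10). Malat1 was also the gene that Spry2 was most like (0.07 and 0.07), and was among the 5 named for Etv5 (0.11 and 0.07). It was thus not particular to Fgf4. Spry4 was most like Adam23 (0.09 and 0.07) and Ier2 most like H2afz (0.08 and 0.08). None of the 35 genes so named was itself one of the 10, which says little where 5048 genes were searched. The values ran only from 0.05 to 0.11.

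The remaining genes of the pathway give the setting, read by the same mark against the same 10.2% lower and 3.5% higher of all genes. Over 6 lists of ligands, receptors, relay, inhibitors, response factors and immediate early genes, 58 genes reached 10 CPM, of which 5 were lower and 4 higher in sonKD. With TMM 2 were lower and 6 higher, so the balance between directions rests on the scaling.

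Among 10 other ligands and binding proteins, 2 reached 10 CPM, 0 were lower and 1 was higher, with a median of 0.40. Fgf17, another ligand, was at 52.7 and 58.1 CPM (log2 ratio 0.14, 0.05 to 0.23), and Fgfbp1, a carrier that releases FGFs from the matrix, was at 9.68 and 15.2 CPM (0.65, 0.46 to 0.85). Neither shared the lower level of Fgf4. Of 10 other receptors and heparan sulphate coreceptors, 5 reached 10 CPM, 2 were lower and 1 higher, with a median of -0.30. Fgfr2 was at 45.5 and 36.3 CPM (-0.32, -0.43 to -0.22), above Fgfr1 in level in both libraries. Hspg2, which encodes perlecan, had a ratio of -0.34 (-0.43 to -0.25), and the syndecan Sdc4, with the highest level of this list at 124 and 164 CPM, had 0.40 (0.34 to 0.45).

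The relay from adaptors through RAS and RAF to ERK was measured most completely, with 23 of 26 genes at 10 CPM, 1 lower, 1 higher, and a median of -0.14. A total of 21 of the 23 were below 0, where 74.9% of all genes were. The RAS exchange factor Sos1 had a ratio of -0.32 (-0.45 to -0.18), just short of the mark, and the MEK scaffold Lamtor3 stood highest at 0.42 (0.29 to 0.54). Hras had the highest level, 153 and 133 CPM, with a ratio of -0.20 (-0.26 to -0.14). Of 16 further inhibitors 9 reached 10 CPM, 1 was lower and 0 higher, with a median of -0.22. The ERK phosphatase Dusp9 was at 45.8 and 34.7 CPM (-0.40, -0.51 to -0.29), unlike Dusp6. The RAS inactivator Rasa1 was at -0.32 (-0.44 to -0.19), the ubiquitin ligase Cbl at -0.30 (-0.41 to -0.19), and Pebp1, the most abundant of the list at 783 and 768 CPM, at -0.03 (-0.05 to 0.00).

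Response factors other than Etv4 and Etv5 numbered 15, of which 9 reached 10 CPM, 1 was lower and 1 higher, with a median of -0.09. Phlda1 was higher, at 13.5 and 20.1 CPM (0.58, 0.41 to 0.74), and the ERK-regulated repressors Erf and Cic had -0.45 (-0.61 to -0.30) and -0.32 (-0.47 to -0.16). Ccnd1, which encodes cyclin D1, had the highest level, 107 and 97.2 CPM, and a ratio of -0.14 (-0.20 to -0.07). Of the other immediate early genes, 19 of 20 listed symbols were in the files and 10 reached 10 CPM, with 0 lower, 0 higher and a median of 0.03. Btg2 had 0.27 (0.15 to 0.39), Jund -0.24 (-0.28 to -0.20), Junb 0.17 (0.06 to 0.29) and Klf2, the most abundant, -0.16 (-0.19 to -0.12). Egr1 thus had a lower ratio than each of the other immediate early genes measured at 10 CPM. Heat shock genes, read because the cells were detached with trypsin and thawed, had 8 of 10 at 10 CPM, 0 lower, 0 higher and a median of -0.07.

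The structure of the genes was read beside the ratios, since Son takes part in splicing. Over all genes the median ratio went with the number of exons, at -0.04 for 1494 genes of 1 to 4 exons, -0.08 for 2570 genes of 5 to 9 exons and -0.15 for 3999 genes of 10 or more exons. Of the 10 genes, 7 have 1 to 4 exons and 3 have 10 or more, namely Fgfr1, Etv4 and Etv5, whose ratios of -0.28, -0.17 and -0.26 lie within the 5th and 95th percentiles of their class, -0.41 and 0.11. Egr1, with 2 exons, lies below the 5th percentile of its class, -0.37, and Fgf4, with 3 exons, lies above it at -0.24. Whether exon number plays a part in any of these ratios was not tested.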

How the data were processed

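Single-cell RNA sequencing measured 1 control and 1 sonKD library, grouped by sample title. The authors deposited raw UMI counts per gene and barcode for all barcodes, made with Cell Ranger 7.1.0 per the file headers, and the submitters' processing notes name the build mm10. Which annotation was used, and whether intronic reads were counted, is not given in the sources used here. The libraries held 71046373 and 60352438 UMIs.

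Counts were summed over the kept cells and scaled to the library sum (CPM), with exact Poisson intervals. Log2 ratios had no pseudocount, counts under 3 were set to 3, and intervals were exact conditional binomial. Genes that averaged 10 CPM or more over both libraries formed the background, and 0.32 on the log2 scale was the mark for lower or higher. With 1 library per group no p-value was computed. Cells were thinned to 4000 UMIs without replacement (seed 1), and shares have Clopper-Pearson intervals. Intervals of share differences combine both bounds as a root sum of squares. Scrublet (scanpy 1.11.5) called 0.0603% and 0.0366% of cells, which is no working call, so doublets were kept, and removing 3.98% and 2.20% by rate was an alternative. TMM factors came from edgeR 4.0.16, which was used for no test. Positions and exons are from GENCODE M21 on GRCm38, which held 32235 of 32285 identifiers, and promoters from RefSeq. The code was tested on simulated counts.

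The members and lists were chosen with earlier results of these data known. Named genes are all 10 members, the 3 genes of each list farthest from 0 and its most abundant gene, and Son; 1 gene that this rule names is not reported here. Alternatives covered scaling, filters, fold, thinning, cell minimums and doublets. A total of 6 were added after the data were seen: 2 bands of depth, 1 of mitochondrial share, 2 averages over all draws, and a list without Utf1. Shares of all genes or pairs were read by the same rules as the members.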

Additional observations from a re-analysis of the deposited data

How the results depend on the processing

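No paired analysis was possible because each group held 1 library. Of the values recomputed, the share of genes lower past the mark went from 10.2% to 4.59% with TMM factors, 5.49% without mitochondrial and ribosomal protein genes, 17.97% with no filter on genes and 1.23% at 1.5-fold, and the share higher from 3.5% to 5.57%, 5.29%, 18.2% and 0.992%, and to 5.27% for genes of at least 50 CPM. The number of the 10 genes that were lower went from 1 to 4 and 3 in cells of 5000 to 10000 and 10000 to 15000 UMIs and to 2 in cells of 2.5% to 5% mitochondrial UMIs, and the number higher from 0 to 1 in cells of 10000 to 15000 UMIs. Of the 58 genes of the pathway lists, those lower went from 5 to 2 with TMM factors, where 4.59% of all genes were lower. At 50 CPM only 22 list genes were left, of which 1 was lower and 1 higher, against 4 higher among the 58. Of all genes at 50 CPM, 7.05% were lower and 5.27% higher, so the smaller counts there come with fewer genes read.

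Without thinning the detection differences of Fgf4 (4.39 points), Fgfr1 (2.88), Etv5 (6.43) and Fos (0.59) reversed, by construction since sonKD cells are deeper, and the genes with an interval below 0 went from 5 to 0; at a limit of 5% mitochondrial UMIs they went to 3. Mean and highest r went to 0.0633 and 0.157 in control and 0.0785 and 0.217 in sonKD without thinning. Pairs found together above expectation in both libraries numbered 2 in the single draw of 4000 UMIs, 1 at 2500, 0 at 6000, 14 without thinning, 0 at 5% mitochondrial UMIs, 0 with doublets removed and 0 over all draws, and so were not reported from the single draw. Beyond the thinning, the cause of these changes was not tested. Depth limits Fos most, with 319 and 219 UMIs. A single library per group limits every difference.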
